A study of Mus musculus with 4 samples.

Results

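The genes described here are 37 genes of DNA synthesis and mitosis, followed through the immune cells of the neonatal mouse heart. They were found by symbol among the 32285 genes of the files, and all 37 were present. Of these, 15 act in S phase, when DNA is copied, and 22 act in mitosis or the preparation for it. The 2 sets were kept apart throughout.

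Live CD45-positive cells, that is immune cells, were sorted from hearts whose atria had been removed, and their RNA was counted with a 3' single-cell assay. All mice were C57BL/6 and lacked PD1, a receptor that restrains lymphocytes, on 1 allele (PD1 Het) or on both (PD1 KO), so no group had 2 intact copies. Sham surgery or a myocardial infarction (MI) was performed at postnatal day 2 and hearts were taken 7 days later. The 4 groups, Het sham, KO sham, Het MI and KO MI, held 1 library each, and the number of hearts in a library was not given in the sources used here. With 1 library a group there was no replicate check, so differences were not tested and no p-value is given.

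Values are UMIs (counted RNA molecules) per 1000000 UMIs of a cell type in a library, written CPM, and differences between libraries are log2 ratios. Brackets hold 95% intervals. They cover counting error only and are too narrow for the UMIs of a cell, which are not independent of each other. Where 4 values follow each other they stand in the order Het sham, KO sham, Het MI and KO MI.

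The libraries held 6157 to 8379 barcodes and 52701847 to 72002420 UMIs. Cells with at least 500 UMIs, at least 200 genes and at most 10% mitochondrial UMIs numbered 5376, 6407, 5074 and 7104, and pairs of libraries shared 4 to 13 of these barcodes. Cells were then gated by fixed markers, and 326, 291, 230 and 345 cells that met no gate were left out. Droplets with markers of 2 lineages (15.7% to 20.6% of kept cells) were also removed, which left 4195, 5111, 3962 and 5298. C1qa, a marker that defines the macrophage gate, stood at 3807 CPM in gated macrophages and 66.0 CPM in all other gated cells. That gap follows from the gate and does not check it. KO MI stood apart in sex, since 0.0189% of its cells held a Y-linked UMI against 38.5% to 57.6% in the other libraries, so sex, library and group cannot be told apart. Pdcd1, the targeted gene, stood at 12.2, 14.6, 27.2 and 57.2 CPM in T cells outside the thymocyte-like gate. Which stretch of Pdcd1 was deleted is not given in the sources used here, so these 3' tags do not check the labels of the libraries called KO here.

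A cell that enters the cycle first licenses its DNA for copying, makes nucleotides and copies its chromosomes, then condenses and separates them in mitosis. Genes of the first step are typically switched on by E2F factors once the retinoblastoma protein is inactivated. Genes of the second step are held down in resting cells by the DREAM complex, which binds a promoter element called the CHR, and are later driven by B-MYB and FOXM1 through the same element. In the heart, macrophages settle before birth and maintain themselves partly by local division, while neutrophils arrive as cells that have stopped dividing.

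The promoters of the 2 sets differed in these elements, and a few are shown because the sets are compared with each other below. RefSeq windows of GRCm38.p6, from 250 bases before to 50 bases after each gene's start, were matched for 14 of the 15 S-phase and 18 of the 22 mitotic members, and both strands were searched. The E2F letters TTTNNCGC lay in 6 of 14 S-phase and 1 of 18 mitotic members, and in 5.93% of the 27025 genes with a window. The CHR letters TTTGAA lay in 1 of 14 S-phase and 13 of 18 mitotic members, and in 20.2% of all. CCAAT, the box bound by NF-Y, lay in 8 of 14, 16 of 18 and 41.1%. Outside the members, E2F letters lay in 9 of 23 other DNA replication and 5 of 32 other mitosis genes, and CHR letters in 4 of 23 and 25 of 32. CCAAT lay in 14 of 23 and 21 of 32 and so did not separate these lists as it did the members. Matches are descriptions of letters, and neither binding nor control was measured.

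The stretches below run 5′ to 3′ toward the start, from 160 bases before it up to the base before it or, where the GENCODE gene begins earlier, the base before that gene. Capitals mark the letters searched for above, read on either strand. Those of the helicase subunits are Mcm6 chr1:128359706-128359865 (minus strand) and Mcm5 chr8:75109349-75109508 (plus strand).
Mcm6: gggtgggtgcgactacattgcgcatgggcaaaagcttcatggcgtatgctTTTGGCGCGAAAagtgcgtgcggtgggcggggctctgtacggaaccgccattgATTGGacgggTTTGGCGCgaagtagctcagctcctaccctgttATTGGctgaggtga
Mcm5: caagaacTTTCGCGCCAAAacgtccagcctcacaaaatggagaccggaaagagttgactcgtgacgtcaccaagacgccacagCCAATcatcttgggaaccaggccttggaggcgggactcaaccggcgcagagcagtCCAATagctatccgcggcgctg
Mcm6 holds E2F letters on both strands in an overlapping pair and a further match nearer the start, and Mcm5 holds an overlapping pair. The mitotic stretches are Cdk1 chr10:69352939-69353072 (minus strand), Top2a chr11:99024190-99024349 (minus strand), Mki67 chr7:135716380-135716539 (minus strand), Cdc20 chr4:118437353-118437503 (minus strand) and Kif11 chr19:37376222-37376381 (plus strand).
Cdk1: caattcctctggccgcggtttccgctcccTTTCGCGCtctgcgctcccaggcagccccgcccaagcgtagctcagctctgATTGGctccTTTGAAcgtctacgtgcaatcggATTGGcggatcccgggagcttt
Top2a: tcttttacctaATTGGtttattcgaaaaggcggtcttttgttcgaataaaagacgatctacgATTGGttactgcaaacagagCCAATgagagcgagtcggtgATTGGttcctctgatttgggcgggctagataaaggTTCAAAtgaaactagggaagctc
Mki67: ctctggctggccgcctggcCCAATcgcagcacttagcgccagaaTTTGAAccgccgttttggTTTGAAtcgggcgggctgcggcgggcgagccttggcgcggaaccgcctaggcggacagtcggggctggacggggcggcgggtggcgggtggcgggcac
Cdc20: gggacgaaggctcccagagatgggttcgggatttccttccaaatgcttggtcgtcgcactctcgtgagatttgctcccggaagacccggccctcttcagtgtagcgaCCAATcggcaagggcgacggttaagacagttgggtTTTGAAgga
Kif11: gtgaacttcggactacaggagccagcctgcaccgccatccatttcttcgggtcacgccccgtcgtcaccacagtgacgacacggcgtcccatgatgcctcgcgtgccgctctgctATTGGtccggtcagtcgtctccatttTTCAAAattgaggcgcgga
Cdk1, the kinase that drives entry into mitosis, is the 1 mitotic member with both the E2F and the CHR letters. Top2a, Cdc20 and Kif11 hold CHR letters within 30 bases of the start, whereas Mki67 holds a pair further away.

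The 7 cell types with the most cells spanned a wide range in these RNAs. Among them, thymocyte-like T cells, gated by at least 3 of 8 thymocyte genes such as Rag1, were highest, with S-phase sums of 4213, 3739, 3974 and 3857 CPM and mitotic sums of 6940, 6749, 5484 and 5556 CPM. They numbered 283, 35, 70 and 158 cells. T cells outside that gate followed, with mitotic sums of 3213, 1238, 1912 and 2420 CPM, and macrophages came next with 2122, 2033, 1411 and 1269 CPM. In KO sham that order turned, with macrophages above the T cells. The smaller types, not ranked here, include some with higher mitotic sums in single libraries. NK cells, 19 to 88 a library, stood at 2229 CPM over all libraries together, near the T cells' 2328 CPM.

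B cells, monocytes and neutrophils held the low end of the order. B cells outside the pro-B and pre-B-like gate had mitotic sums of 580, 679, 766 and 824 CPM. Classical monocytes had 378, 362, 175 and 242 CPM and non-classical monocytes 248, 195, 153 and 119 CPM. Mature neutrophils, which served as the background type, had 341, 61.9, 67.5 and 134 CPM. The thymocyte-like gate asks for detected genes and so favours deeper cells, and no interval here stands for the spread between animals.

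**Figure D1:**
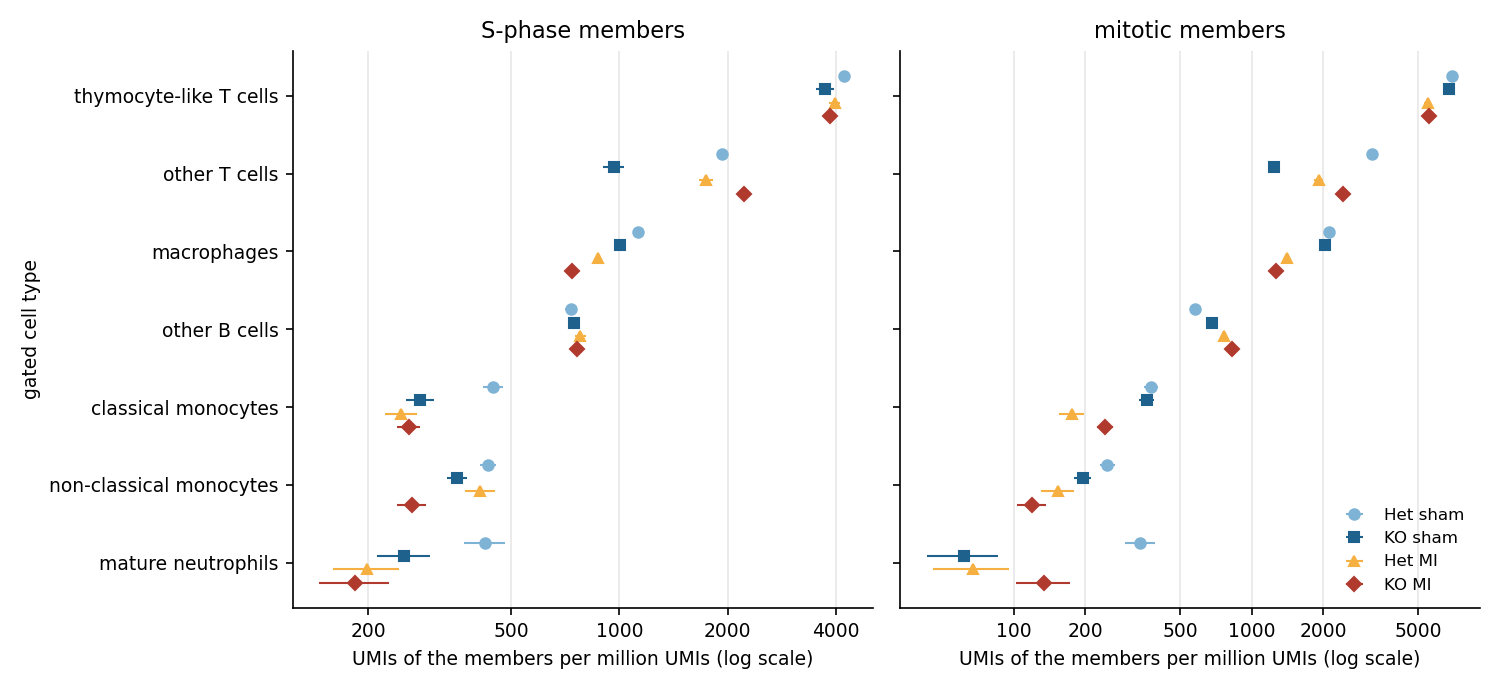
Summed UMIs of the S-phase (left) and mitotic (right) members per 1000000 UMIs, on a log axis, for 7 gated cell types and 4 libraries; bars are exact Poisson 95% intervals. Thymocyte-like T cells lie highest in both panels, and mature neutrophils of Het sham (341 CPM) lie above those of the other libraries in the right panel.

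Members did not scale together from one cell type to another. Set against macrophages of the same library, thymocyte-like T cells held 3.30 to 3.93 log2 units more Dut, which keeps uracil out of DNA, and 2.76 to 3.70 more Rrm2, the regulated subunit of the enzyme that makes deoxynucleotides. Pclaf, a partner of the sliding clamp, was 2.61 to 3.24 higher. Tk1, which salvages thymidine, differed by 0.25 to 0.97 and Cdk1 by 0.63 to 1.45. Genes of nucleotide supply thus lay far apart in this comparison, since Tk1 and Rrm2 both belong to them.

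B cells departed from macrophages in a different way. Dut was 0.44 to 1.10 log2 units higher in B cells than in macrophages of the same library, and Pcna, the sliding clamp of DNA polymerase, was level (-0.16 to -0.02). Cenpf, a kinetochore protein, was lower, at log2 ratios of -2.98 to -1.28, and Cdk1 stood at -2.84 to -1.22. The 2 sets therefore stood closer to each other in B cells (S-phase 731, 746, 779 and 761 CPM) than in macrophages.

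Pcna and Stmn1 were the most counted members in most of these types. Stmn1, which destabilises microtubules, held the most mitotic UMIs in each of the 7 types, and Pcna the most S-phase UMIs in macrophages, monocytes, neutrophils and B cells. In mature neutrophils Pcna stood at 242, 214, 161 and 114 CPM, against 255, 245, 263 and 208 CPM in macrophages. It was thus close to its macrophage level in the sham libraries and lower in the MI libraries. Stmn1 stood at 126, 30.1, 17.4 and 56.0 CPM in these neutrophils. Pcna and Stmn1 were the 2 members with at least 30 UMIs in each pair of neutrophil libraries. The next was Pclaf, at 36.5 CPM from 20 UMIs in Het sham.

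Macrophages, 1377, 2434, 2089 and 2863 cells, gave the most UMIs and are described member by member. All 37 members were detected in each library. In the S-phase set Pcna led with 255, 245, 263 and 208 CPM, and Chek1, the replication checkpoint kinase, was lowest or next to lowest with 10.1, 10.99, 7.7 and 6.1 CPM. In the mitotic set Stmn1 led with 559, 494, 369 and 334 CPM, followed by Mki67, the coat protein of mitotic chromosomes known as Ki-67, with 206, 199, 162 and 118 CPM. Top2a, which untangles copied DNA, stood at 172, 164, 125 and 110 CPM, and Pclaf at 147, 135, 91.4 and 86.1 CPM. Apart from Pcna, each of these leading genes was lower in both MI libraries than in both sham libraries. These 3' counts were not divided by length, so the order of genes is an order of counted tags.

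**Figure D2:**
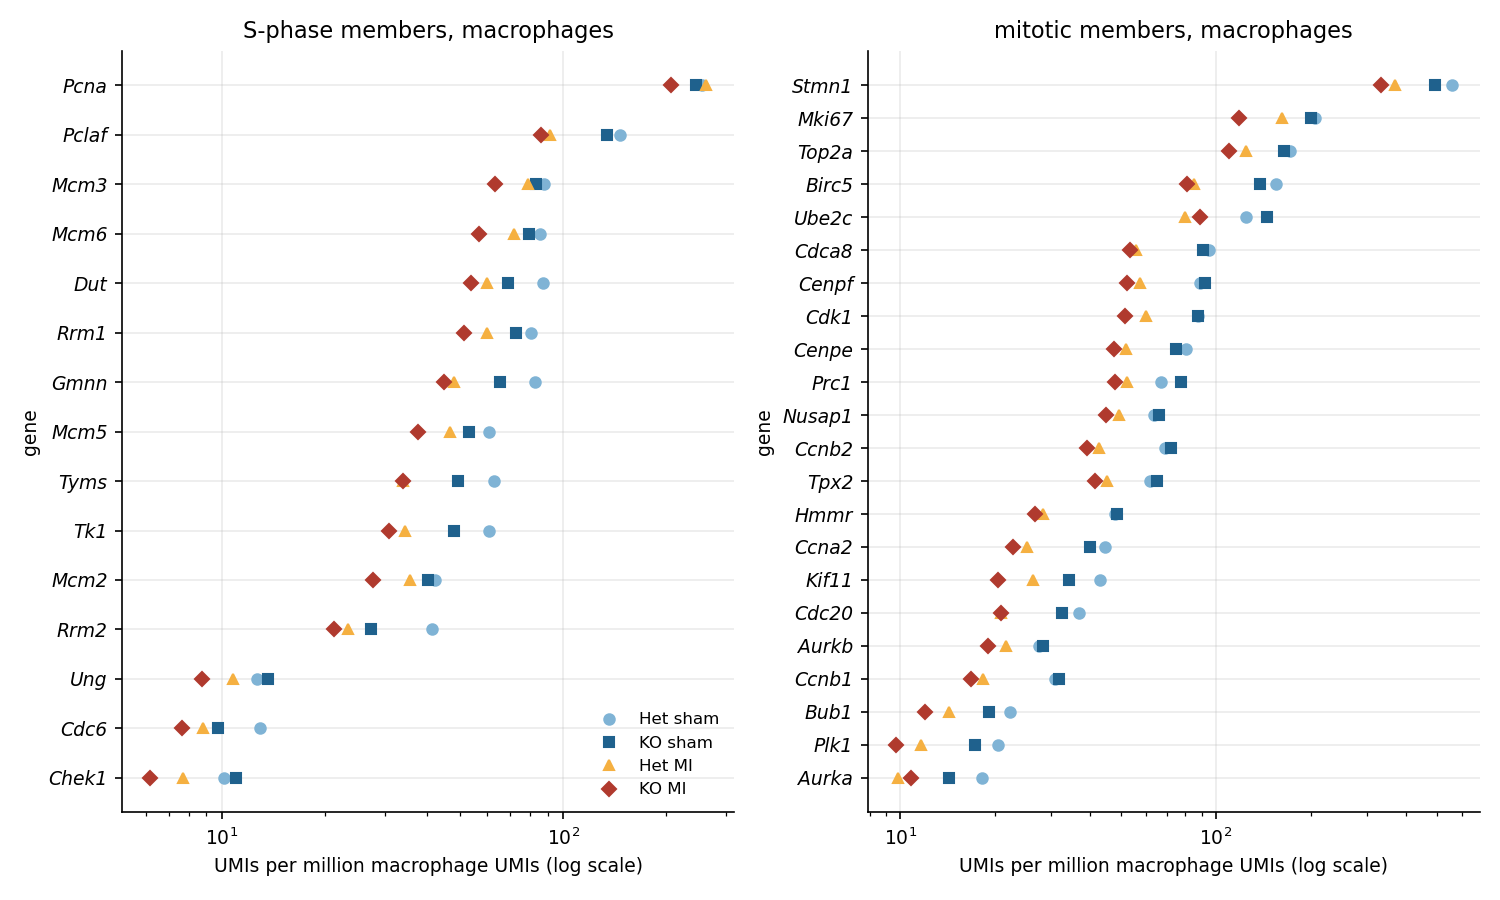
UMIs of each S-phase (left) and mitotic (right) member per 1000000 macrophage UMIs, on a log axis, with 1 point for each of the 4 libraries. Stmn1 runs from 334 to 559 CPM, and the triangles and diamonds of the MI libraries lie left of the sham points for nearly all genes.

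After MI, macrophages of both genotypes held less RNA of both sets than after sham. The S-phase sum was 1128 CPM in Het sham and 874 in Het MI, a log2 ratio of -0.37 [-0.40, -0.34], and 1002 in KO sham and 737 in KO MI, a ratio of -0.44 [-0.47, -0.42]. The mitotic sum gave -0.59 [-0.61, -0.57] in Het and -0.68 [-0.70, -0.66] in KO. Over all measured genes of these macrophages the median ratio was -0.07 in Het and -0.11 in KO, and the members' ratios are read against that shift. With droplets of 2 lineages kept, the KO ratios were -0.18 for the S-phase and -0.44 for the mitotic sum, and the Het ratios -0.45 and -0.71.

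The mitotic set was lower nearly as a block. Of its 22 members, 15 were at least 1.5-fold lower in Het MI than in Het sham, where 6.58% of all measured genes were, and 17 were so in KO MI against KO sham, where 5.15% were. None was 1.5-fold higher, where 6.61% and 7.01% of all genes were. All 22 lay below 0 in both comparisons, with medians of -0.64 in Het and -0.73 in KO.

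The mitotic members differed in degree and the order was not the same in the 2 genotypes. Aurka, a kinase of the spindle poles, went from 18.2 to 9.9 CPM in Het (-0.88 [-1.13, -0.64]) and from 14.2 to 10.8 CPM in KO (-0.40 [-0.61, -0.19]). It was thus the lowest ratio in Het and the highest in KO. Mki67 was the highest in Het, at -0.34 [-0.41, -0.28], and stood at -0.76 in KO. Ccnb1, the mitotic cyclin B1, had the lowest KO ratio, from 31.8 to 16.7 CPM (-0.93 [-1.08, -0.77]), and -0.76 in Het. Whether the genotypes differ in these ratios was not tested.

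Several roles within the mitotic set can be set side by side. The cyclins Ccna2 (-0.83 and -0.80 in Het and KO), Ccnb1 and Ccnb2 (-0.69 and -0.88) were all past 1.5-fold in both genotypes. So were Birc5 and Cdca8, subunits of the chromosomal passenger complex, at -0.86 and -0.77 for Birc5 and -0.77 in each for Cdca8. Cdc20, the activator of the anaphase-promoting complex, stood at -0.83 and -0.65. Ube2c, the complex's ubiquitin-conjugating enzyme, stood at -0.64 and -0.70. Aurkb, the kinase of the passenger complex, was nearer to 0 than both, at -0.35 and -0.58, so that in Het this complex spanned nearly the range of the whole set.

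The S-phase set was lower by less and was more mixed. Of its 15 members 5 were past 1.5-fold lower in Het and 4 in KO, against 6.58% and 5.15% of all measured genes. None was past it higher, against 6.61% and 7.01% of all genes. The medians were -0.43 and -0.51. In Het, Tyms, the enzyme that makes thymidylate, was lowest (62.6 to 33.9 CPM, -0.88 [-1.01, -0.75]). Rrm2 (-0.82), Tk1 (-0.81), Gmnn, the inhibitor of re-licensing (-0.79), and Pclaf (-0.68) made up the rest of the 5. The helicase subunits lay nearer to the shift of all genes, at -0.15 for Mcm3, -0.24 for Mcm2, -0.25 for Mcm6 and -0.38 for Mcm5.

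In KO the S-phase members lay closer together. The helicase subunits stood at -0.41 for Mcm3, -0.49 for Mcm6, -0.50 for Mcm5 and -0.54 for Mcm2, and Tyms at -0.54 and Rrm2 at -0.37 no longer stood below them. Chek1 was lowest, from 10.99 to 6.15 CPM (-0.84 [-1.10, -0.58]). Pcna was the highest of the set in both genotypes, at 0.04 [-0.01, 0.10] in Het and -0.24 [-0.29, -0.19] in KO, and in Het it was the 1 member of 37 not below 0.

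**Figure D3:**
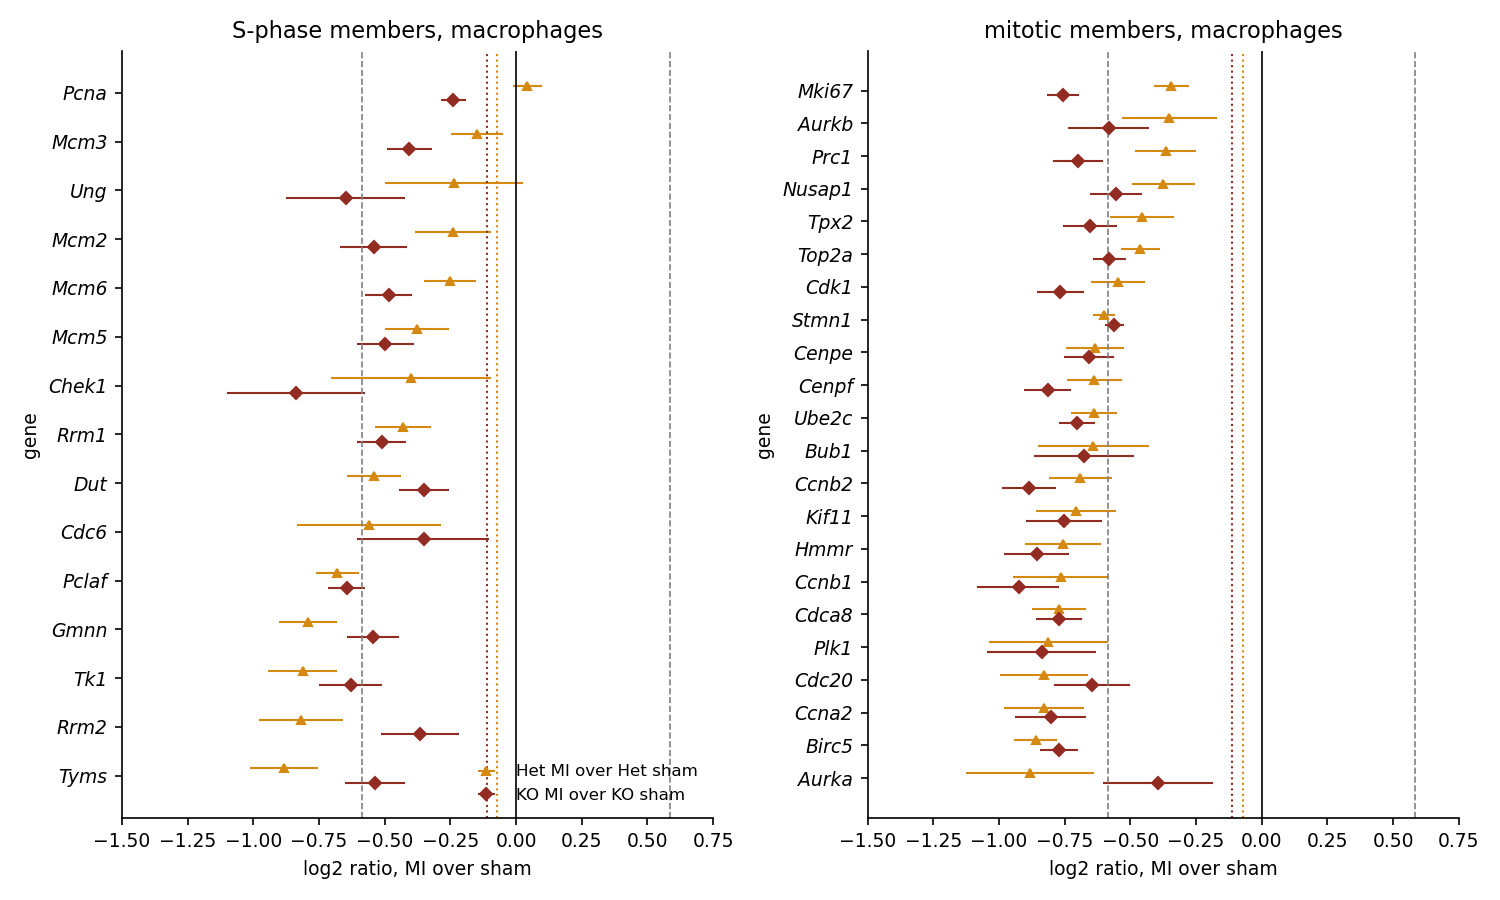
Log2 ratios of MI over sham in macrophages for each S-phase (left) and mitotic (right) member, Het as triangles and KO as diamonds, with exact conditional binomial 95% intervals; grey dashes mark 1.5-fold and dotted lines the median of all genes (-0.07 in Het and -0.11 in KO). All mitotic points lie left of 0, and Pcna is the highest S-phase point in both genotypes.

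Genes of the same processes outside the members followed a similar course. Of 39 other mitosis genes, 18 were past 1.5-fold lower in Het, where 6.58% of all measured genes were, and 27 in KO, where 5.15% were. They ran from Sgo1, which protects centromere cohesion, at -1.03 in Het and Cep55, an abscission protein, at -1.06 in KO. The upper ends were Espl1, the protease separase, at 0.25 in Het and Pttg1, its inhibitor securin, at 0.07 in KO. Of 30 other DNA replication genes, 8 and 7 were past 1.5-fold lower, against the same shares of all genes, from Gins1 (-0.78) in Het and Rad51ap1 (-0.82) in KO up to the licensing factor Cdt1 (0.10 and -0.05). Of 20 genes of cycle entry and its brakes, 1 was past 1.5-fold lower in each genotype, close to the share of all measured genes (6.58% in Het and 5.15% in KO), and their medians were -0.08 and -0.15 against -0.07 and -0.11. Cdkn1a, the inhibitor p21, was highest in Het, from 289 to 510 CPM (0.82 [0.77, 0.87]). That was past 1.5-fold, where 6.61% of all measured genes were higher by that much. Btg1, an antiproliferative gene, was highest in KO (0.38). No gene of this list, Cdkn1a included, was therefore past 1.5-fold higher in KO, where 7.01% of all genes were.

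Between KO MI and Het MI no member was past 1.5-fold in either direction, where 4.20% of all genes were lower and 4.47% higher. The S-phase ratio was -0.25 [-0.27, -0.22], with a median of -0.22 over members against -0.11 over all genes. With droplets of 2 lineages kept the S-phase ratio was -0.0097, and under TMM scaling it was -0.15. The mitotic ratio was -0.15 [-0.17, -0.13], but 0.053 when droplets with markers of 2 lineages were kept and 0.0038 in macrophages without a Spp1 or Gpnmb UMI. Mki67 was the lowest mitotic member (162 to 118 CPM, -0.46 [-0.52, -0.39]) and Ube2c the highest (79.9 to 89.2 CPM, 0.16 [0.08, 0.24]). Among S-phase members Mcm2 was lowest (-0.37) and Tyms was level at 33.9 CPM in both libraries.

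Between the sham libraries the S-phase ratio of KO over Het was -0.17 [-0.20, -0.14] and the mitotic ratio -0.06 [-0.08, -0.04], which turned to 0.023 under TMM scaling and to 0.011 under median-of-ratios scaling. In cells with Xist and no Y-linked UMI the mitotic ratio was 0.026. The S-phase ratio was -0.086 under TMM scaling and -0.29 with droplets of 2 lineages kept, where it lay further from 0 than the KO ratio of MI over sham (-0.18). Rrm2 (41.3 to 27.4 CPM, -0.59 [-0.74, -0.44]) was the 1 member past 1.5-fold, where 5.19% of all genes were lower by that much. None was past it higher, where 3.58% were. Ube2c was again the highest mitotic member (124 to 145 CPM, 0.22) and Aurka the lowest (-0.35). The comparisons share libraries, so they are not independent of each other.

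To see how these RNAs were shared out over cells, each macrophage was thinned to 2000 UMIs and placed in the S-phase range, the mitotic range or both when at least 2 different members of a set were detected. A range is a stretch of a scale, not a cell type. At the edge, 124, 230, 116 and 181 macrophages held exactly 2 mitotic members and 325, 560, 498 and 632 held 1. The mitotic range held 34.7% [32.0, 37.4] of Het sham, 31.7% [29.8, 33.6] of KO sham, 21.3% [19.5, 23.1] of Het MI and 20.6% [19.1, 22.2] of KO MI macrophages. Both MI libraries lay below both sham libraries with intervals apart. The S-phase range held 33.3%, 31.8%, 28.3% and 23.7%. Without thinning the mitotic range held 65.9%, 60.6%, 53.2% and 45.9%, and shallower cells left out of the thinned counts numbered 122, 63, 57 and 98. In mature neutrophils, at lower median depth (1911 to 2335 UMIs against 8756 to 10830 in macrophages), 11.3%, 0%, 0.735% and 4.35% lay in the mitotic range. These shares cover only neutrophils with at least 2000 UMIs, and the median of all KO MI neutrophils, 1911 UMIs, lay below that. The 0 of 138 such KO sham neutrophils, out of 250 in all, allows a share of up to 2.17%, taking 3 cells as the limit.

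The classes of macrophages differed unequally in size between sham and MI. Cells in the S-phase range alone made up 13.9%, 13.6%, 15.0% and 12.4%, without a common direction in the 2 genotypes. Cells in both ranges made up 19.4%, 18.2%, 13.3% and 11.4%, and cells in the mitotic range alone 15.2%, 13.5%, 7.92% and 9.26%. Of macrophages in any range, the share in the mitotic range was 71.4%, 70.0%, 58.7% and 62.5%.

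The level within a range differed least in cells of both ranges. They held mitotic sums of 4786, 4761, 4697 and 4546 CPM, and S-phase sums of 2649, 2284, 2440 and 2251 CPM. Cells in the mitotic range alone held mitotic sums of 4521, 4630, 4221 and 3664 CPM, lowest in KO MI. Cells in the S-phase range alone held S-phase sums of 1237, 1363, 1207 and 1107 CPM, also lowest in KO MI. Macrophages in neither range held 295, 246, 216 and 196 CPM of mitotic members, lower in both MI libraries than in both sham libraries. Since the ranges were cut on these same genes, the levels are a description. Cells in both ranges were deeper, with medians of 13048 to 16027 UMIs against 8402 to 10108 in neither.

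**Figure D4:**
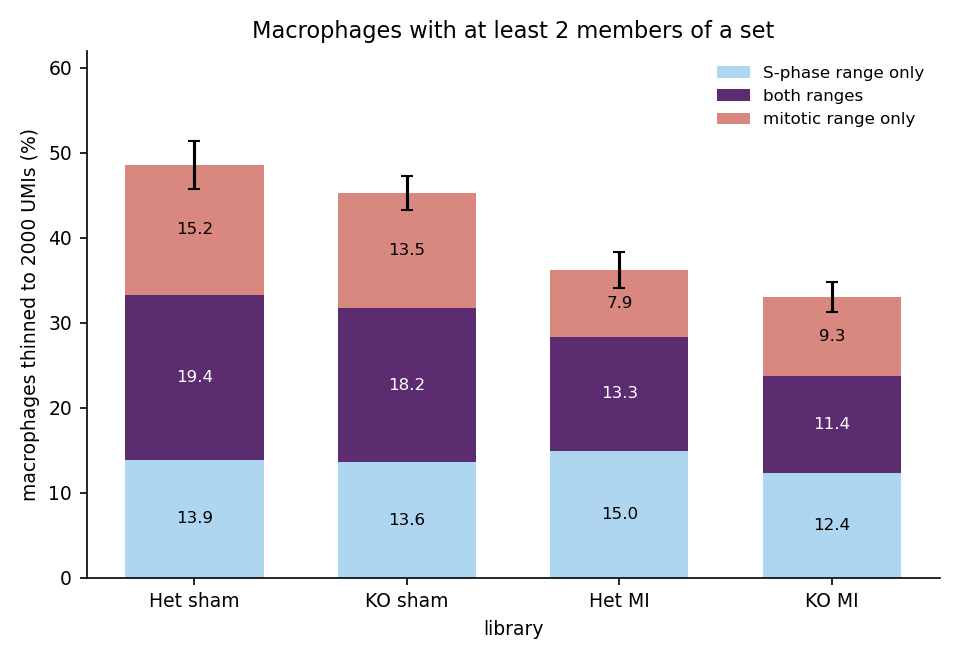
Share of macrophages, thinned to 2000 UMIs, in the S-phase range only, both ranges or the mitotic range only, as stacked bars for each library; error bars are exact 95% intervals of the total. The total is 48.5% in Het sham and 33.0% in KO MI, while the S-phase-only part stays between 12.4% and 15.0%.

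Members differed in which macrophages carried them. Of macrophages with a Pclaf UMI 84.2% also lay in the mitotic range, as did 80.7% of those with Tk1, 80.1% with Rrm2 and 70.3% with Tyms. For the licensing and helicase genes the share was lower, at 40.9% for Mcm6, 42.3% for Mcm2, 42.5% for Mcm3 and 49.6% for Cdc6. Pcna carriers came last at 33.6%, near the 26.0% of all macrophages. Pclaf, Tk1 and Rrm2 were the top 3 in each library.

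The mitotic members could be ordered by how many of their carriers lay in the S-phase range. Top2a (68.8%), Aurkb (67.0%) and Nusap1, a spindle protein (65.5%), led. Ccnb2 (40.8%) and Cdc20 (41.2%), came last, against 28.5% of all macrophages. These places are for the libraries together. Top2a was among the top 3 in each library, but Bub1 led in Het sham (70.3%) and Ccna2 in KO MI (69.1%), and Aurka was lowest in Het sham (35.9%). Carriers of Ccna2, Ccnb1 and of Hmmr, a spindle-associated protein, held 2 or more other mitotic members in 95.4%, 95.4% and 95.03% of cases. Stmn1 carriers did so in 45.7%, and Stmn1 was found in 34.6% of macrophages, the most of any member, followed by Pcna in 33.0%. Detection of 1 member is tied to a cell's depth, also after thinning, and shares rest on 109 (Chek1) to 2915 (Stmn1) carriers.

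**Figure D5:**
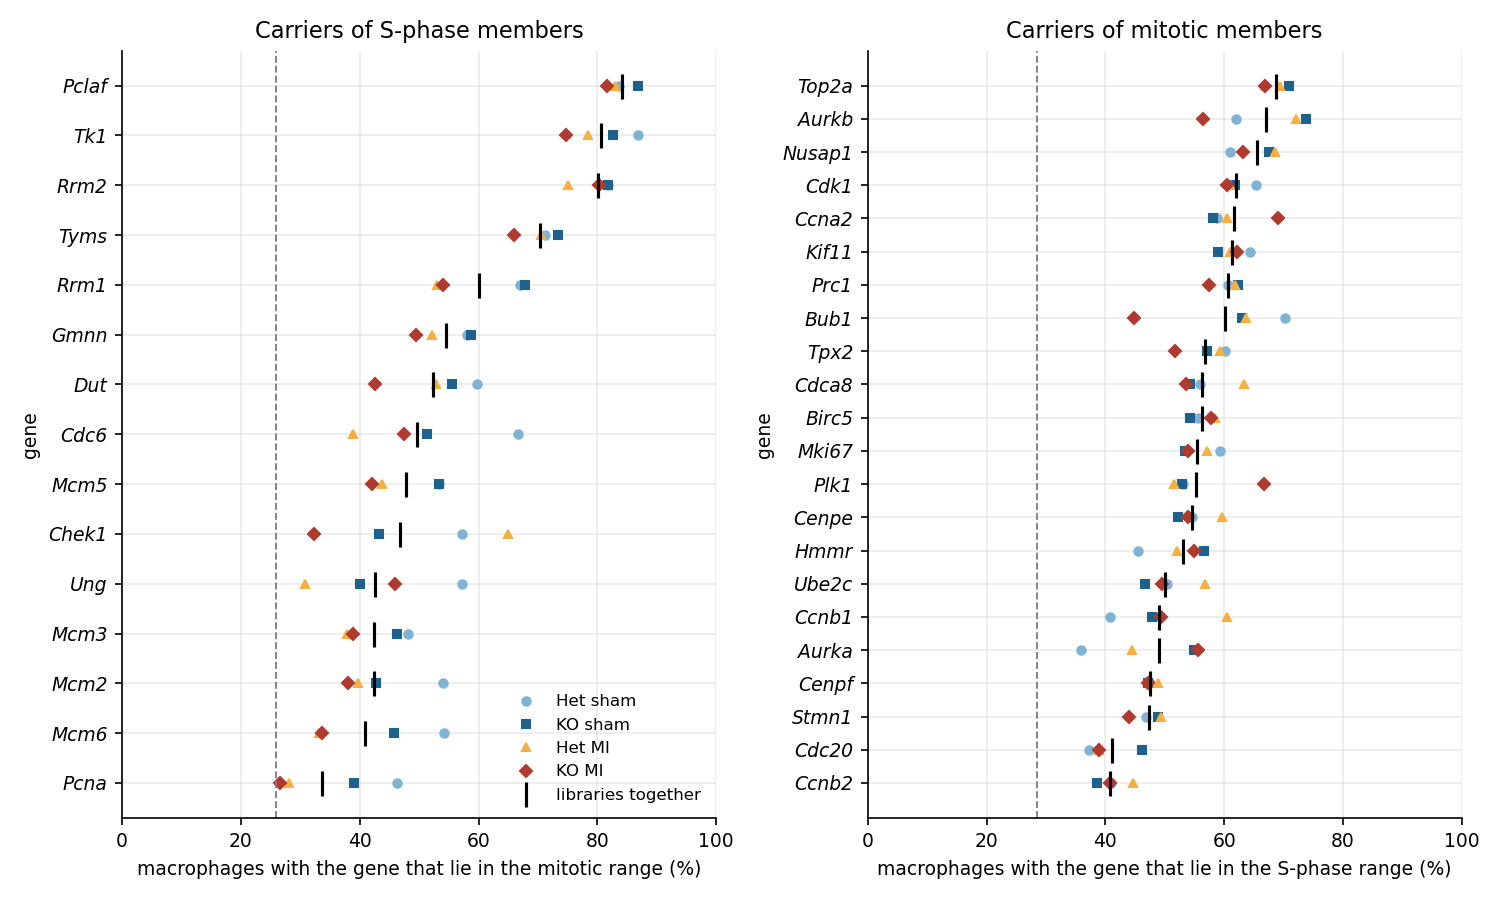
For macrophages carrying each S-phase member, the percent that lie in the mitotic range (left), and for carriers of each mitotic member, the percent in the S-phase range (right), by library and together; dashes mark all macrophages. Pclaf (84.2%) and Pcna (33.6%) are the ends of the left panel, Top2a (68.8%) and Ccnb2 (40.8%) of the right one.

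Macrophages in both ranges differed from those in neither in genes that were not used to cut the ranges. Genes of resident macrophages were close to level as a summed list (-0.05, -0.08, -0.17 and 0.03), although Cd163, a haemoglobin scavenger receptor, was lower in each library (-0.86, -0.86, -0.67 and -0.64). The lipid-associated list, with Spp1 and Gpnmb, stood at -0.54, -0.44, -1.53 and -1.14, and Gpnmb itself at -4.35 in Het MI. MHC class II genes, which present antigen, stood at -0.48, -0.62, -1.45 and -1.31, and monocyte-derived genes such as Ccr2 at -1.32, -1.16, -0.67 and -1.20. Cdkn2c, the inhibitor p18, was higher (2.67, 3.15, 3.01 and 3.08), as was Cdk4, the kinase of cycle entry (1.05, 1.15, 1.17 and 1.19). Btg1 was lower at -0.68, -0.72, -0.57 and -0.78. Pttg1, alone among the 39 other mitosis genes, was not higher in cells of both ranges in any library (-0.25, -0.16, -0.28 and -0.10).

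Markers of macrophage states also differed between sham and MI, and so stand beside the members. The median log2 ratio of MI over sham was 1.36 in Het and 1.80 in KO for lipid-associated genes, and 1.70 and 2.35 for class II genes. Macrophages with a Spp1 or Gpnmb UMI made up 15.9%, 17.1%, 34.4% and 40.6%, and those with an H2-Aa UMI 6.39%, 9.61%, 14.4% and 25.1%. In the sham libraries the Spp1 or Gpnmb carriers held more mitotic RNA than the others (2416 against 2038 CPM in Het sham and 2392 against 1924 in KO sham). In the MI libraries they held less (1378 against 1439 CPM in Het MI and 1111 against 1442 in KO MI). The mitotic order thus turned between sham and MI in both genotypes. The S-phase order did not: carriers held 993, 925, 838 and 655 CPM against 1166, 1026, 904 and 827 CPM in the others. Carriers were also deeper in each library, and the part of these states in the members' ratios was not tested beyond the subsets that follow.

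Among macrophages without a Spp1 or Gpnmb UMI the mitotic ratio of MI over sham was -0.50 in Het and -0.42 in KO, and without a UMI of Spp1, Gpnmb, Ccr2 or H2-Aa it was -0.41 and -0.36. The S-phase ratios were -0.37 and -0.31 in the former cells and -0.29 and -0.26 in the latter. Both subsets of macrophages thus also held less of both sets after MI. Their ratios lay nearer to 0 than in all macrophages, save 1. The S-phase ratio in Het without a Spp1 or Gpnmb UMI was the same as in all macrophages (-0.37). A cell without a UMI can still hold the RNA. Depth was also unequal, with medians of 9999.5, 10193, 9553 and 7391 UMIs in macrophages without a Spp1 or Gpnmb UMI. These subsets were chosen after seeing the data.

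T cells outside the thymocyte-like gate gave opposite directions in the 2 genotypes. The S-phase sum was 1932 CPM in Het sham and 1745 in Het MI (-0.15 [-0.23, -0.06]), but 964 in KO sham and 2216 in KO MI (1.20 [1.09, 1.31]). The mitotic ratio was -0.75 [-0.82, -0.67] in Het and 0.97 [0.87, 1.06] in KO. KO sham was the low library and the other 3 lay above it in both sets. In Het, 18 of the 22 mitotic members were past 1.5-fold lower, where 10.8% of all measured genes were, with Plk1, a mitotic kinase, lowest (22.5 to 2.7 CPM, -3.05 [-5.39, -1.38]). In KO, Dut was the highest S-phase member (134 to 448 CPM, 1.74 [1.46, 2.02]) and Bub1, a spindle checkpoint kinase, the highest mitotic one, from 2 UMIs in KO sham (3.30 [1.31, 6.42]).

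These T cells still held RNA of thymocyte genes, unequally between libraries. Rag1, which recombines receptor genes, stood at 89.2, 13.5, 19.0 and 35.9 CPM in them, against 368, 444, 418 and 355 CPM inside the thymocyte-like gate. The thymocyte list summed to 425, 347, 237 and 330 CPM, of which Cd8b1 alone held 176, 188, 95.2 and 149 CPM. Dntt stood at 52.6, 7.29, 20.9 and 49.2 CPM and, like Rag1, was lowest in KO sham. All 8 thymocyte genes were part of the gate, so cells with 1 or 2 of them stayed outside it. The cells numbered 226, 160, 156 and 204. The part of this in the result was not tested.

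Inside the thymocyte-like gate the libraries were closer. The mitotic ratio of MI over sham was -0.34 [-0.39, -0.29] in Het and -0.28 [-0.35, -0.21] in KO, and the S-phase ratio -0.08 [-0.14, -0.03] and 0.05 [-0.05, 0.14]. Stmn1 stood at 2081, 2207, 1822 and 2039 CPM, Pclaf at 897, 848, 831 and 814, and Dut at 865, 678, 793 and 821. With 2000 UMIs a cell, 72.8%, 66.7%, 67.3% and 78.1% lay in the mitotic range. The share followed the CPM in Het and went against it in KO, so no order is read from it.

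B cells differed from macrophages in direction. Their mitotic sum was 580 CPM in Het sham and 766 in Het MI (0.40 [0.33, 0.47]), and 679 in KO sham and 824 in KO MI (0.28 [0.21, 0.35]), while the S-phase ratios were 0.09 [0.03, 0.16] and 0.03 [-0.04, 0.10]. In Het, 9 of the 21 mitotic members with enough UMIs were past 1.5-fold higher, where 4.28% of all measured genes were, led by Cenpf (11.3 to 23.7 CPM, 1.06 [0.59, 1.55]). In KO, 2 of 22 were, where 3.08% of all genes were, led by Ube2c (38.9 to 73.3 CPM, 0.91 [0.64, 1.18]). Stmn1, the most abundant mitotic member in B cells, was level in Het at 211 and 213 CPM. The share of B cells in the mitotic range was 12.1%, 8.12%, 8.86% and 11.6%. It followed the CPM in KO and went against it in Het, so no order is read from it.

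Both monocyte types held little of either set, and few members reached 30 UMIs in 2 libraries. In classical monocytes, 187 to 368 a library, the mitotic ratio of MI over sham was -1.11 [-1.31, -0.91] in Het and -0.58 [-0.74, -0.42] in KO. Non-classical monocytes gave -0.69 [-0.95, -0.44] and -0.71 [-0.95, -0.48]. The direction of these mitotic ratios was that of macrophages. The S-phase ratios were -0.85 [-1.02, -0.68] in Het and -0.11 [-0.27, 0.06] in KO for classical monocytes. For non-classical monocytes they were -0.07 [-0.23, 0.09] and -0.42 [-0.58, -0.26]. The S-phase intervals of classical monocytes in KO and non-classical monocytes in Het thus held 0. Neutrophils of the same libraries, the background type, had mitotic sums of 341 CPM in Het sham and 61.9 to 134 CPM in the others. The part of background in the monocyte ratios was not tested.

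Mature neutrophils of Het sham held more of these RNAs than those of the other libraries. Their mitotic sum of 341 [294, 393] CPM stood against 61.9 [43.1, 86.1], 67.5 [45.8, 95.7] and 134 [103, 173]. MI over sham was -2.34 [-2.94, -1.78] in Het and 1.12 [0.49, 1.76] in KO. The members' UMIs per neutrophil were taken off the members' sums in macrophages of each library, while the macrophages' total UMIs were left whole. This left mitotic ratios of MI over sham of -0.55 in Het and -0.70 in KO and S-phase ratios of -0.31 and -0.45. Between the sham libraries it left -0.020 for the mitotic and -0.12 for the S-phase sum.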

How the data were processed

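The authors deposited whole-number UMI counts per gene and cell barcode for 4 libraries, from a 3' v3 assay. Per the submitters' processing notes they used Cell Ranger 6.1.1 and Seurat 4 with builds mm10 and GRCm38, while the file headers name Cell Ranger 4.0.0. No cell annotation was used.

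From these counts, cells with at least 500 UMIs, 200 genes and at most 10% mitochondrial UMIs were gated by fixed marker lists (score at least 0.30, at least 3 markers), with thresholds set after seeing the data, so differences from the study's own cell types may come from these rebuilt names. Droplets with a second lineage (score at least 0.25) were removed. Scrublet (Scanpy 1.11.5) set its own threshold at 176, 0, 3 and 1 cells, which did not work, so a fixed expected rate (0.8% per 1000 barcodes) served as an alternative. UMIs were summed by cell type and library. Intervals are exact Poisson (CPM), Clopper-Pearson (shares) and conditional binomial (ratios) at 95%, with SciPy 1.17.1, and cover counting error only. A gene was measured with at least 30 UMIs in 2 libraries. A gene counted as higher or lower past 1.5-fold. Named members were the 4 with most UMIs per cell type and the highest and lowest ratio of each set, and others were described by role. Members and lists were chosen with earlier results of these data known. The ratio, interval and 1.5-fold counting steps were tested on simulated counts, drawn as independent Poisson counts without spread between cells or libraries. The gates were not tested in that way. Alternatives covered scaling, cell filters, droplets, gate, sex and macrophage state.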

Additional observations from a re-analysis of the deposited data

Results flagged for a closer look

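In 3 cases the 2 genotypes moved in opposite directions after MI, each with 1 library a group. The difference was not tested in any of them. In mature neutrophils the mitotic log2 ratio of MI over sham was -2.34 in Het and 1.12 in KO, a KO minus Het difference of 3.46, on sums of 31 to 187 UMIs a library. In T cells outside the thymocyte-like gate the S-phase ratio was -0.15 in Het and 1.20 in KO, a difference of 1.35, and the mitotic ratio -0.75 and 0.97, a difference of 1.72. In the T cells KO sham held the lowest mitotic CPM of the 4 libraries. Most mitotic UMIs of these T cells lay in the 14 to 40 cells a library that were in both ranges. In the neutrophils Het sham stood apart as the highest, at 341 [294, 393] CPM. There KO sham (61.9 [43.1, 86.1] CPM) and Het MI (67.5 [45.8, 95.7] CPM) had overlapping intervals.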

How the results depend on the processing

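The 8 macrophage log2 ratios, given as Het MI over Het sham, KO MI over KO sham, KO MI over Het MI and KO sham over Het sham, were recomputed under 12 alternatives each: 26 values moved by less than their counting interval, 65 by more, and 5 changed sign. All 12 lay below 0 for each result but the mitotic KO MI over Het MI (10 of 12) and the mitotic KO sham over Het sham (9 of 12). TMM scaling gave S-phase -0.29, -0.34, -0.15 and -0.086 and mitotic -0.51, -0.57, -0.057 and 0.023. Median-of-ratios scaling gave -0.30, -0.33, -0.14 and -0.10, and -0.52, -0.57, -0.043 and 0.011. A filter of 1000 UMIs and 5% mitochondrial UMIs gave S-phase MI ratios of -0.41 and -0.48, and mitotic -0.64, -0.75, -0.13 and -0.017. Keeping droplets of 2 lineages gave -0.45, -0.18, -0.0097 and -0.29, and -0.71, -0.44, 0.053 and -0.22. Removing Scrublet calls gave -0.41, -0.48, -0.28 and -0.21, and -0.64, -0.70 and, between shams, -0.10. The stricter gate gave -0.66 for the mitotic KO MI ratio. Cells with Xist and no Y-linked UMI gave -0.44, -0.61, -0.28 and -0.11, and -0.51, -0.87, -0.34 and 0.026. Weighting cells equally gave S-phase -0.28, -0.41 and, between shams, -0.12, and mitotic -0.51, -0.65 and, between shams, -0.013. Chosen after seeing the data were 3 alternatives. Taking off the members' UMIs per neutrophil gave S-phase -0.31 and, between shams, -0.12, and mitotic -0.55, -0.70 and, between shams, -0.020. Cells without a Spp1 or Gpnmb UMI gave S-phase -0.37 in Het, -0.31 in KO and -0.13 between MI libraries, and mitotic -0.50, -0.42, 0.0038 and -0.083. Cells also without Ccr2 or H2-Aa gave -0.29, -0.26, -0.10 and -0.13, and mitotic -0.41, -0.36 and -0.00014. The cause of these shifts was not tested. Shares in either range were lower in MI than in sham in both genotypes under all 6 settings. No paired analysis was possible because each group held 1 library. Few members reached 30 UMIs in monocytes and neutrophils, which limits what can be read there.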
